A study of Homo sapiens with 18 samples.

Results

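Collagen chains, laminin chains and integrin subunits were followed in HK-2, human kidney cells of proximal tubule origin that grow as an immortalized line. The genes were chosen by symbol: a probe set with exactly 1 symbol made of COL, a number, A and a number, or beginning with LAMA, LAMB, LAMC, ITGA or ITGB and a digit, or ITGAV. For each gene the brightest probe set was kept among those whose highest group mean reached 4 on the log2 scale. This gave 47 of the 10717 genes tested in the series, from 83 genes with such symbols. They were 20 of 43 collagen chains, 8 of 10 laminin chains, 14 of 20 integrin subunits and 5 of 10 genes caught only by their letters (ITGB1-DT, ITGB2-AS1, ITGB8-AS1, ITGB1BP1 and ITGB3BP).

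Affymetrix arrays had been hybridised with RNA of cells exposed to CsA or to its vehicle (control) for 12, 24 or 48 h. Each of the 6 groups had 3 arrays, numbered 1 to 3 as biological replicates, and all 18 were labelled as work of the same laboratory. Cells were plated 24 h earlier and were near 90% confluence at treatment. The labels spell out neither CsA, in common use cyclosporin A, nor its dose, and nothing distinguishes the cells of the groups but treatment and time. The design text places the arrays in a search for expression signatures of toxic compounds.

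Collagen IV chains and laminin trimers are the networks of the basement membrane on which tubular epithelium rests, and fibrillar and fibril-associated collagens belong mainly to the interstitial matrix. Integrins are pairs of an alpha and a beta subunit that tie this matrix to the cytoskeleton. Alpha subunits of the ITGA1 and ITGA2 type bind collagen with ITGB1, those of the ITGA3, ITGA6 and ITGA7 type bind laminin, and ITGAV and ITGA5 recognise an RGD sequence in fibronectin, vitronectin or latent TGF-beta.

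Promoter sequence was available in RefSeq (GRCh38.p14) for 32 of the 47 genes. The 4 stretches below are shown because on arrays numbered 3 their genes lay below (COL4A1, COL4A2 and LAMA5) or above (COL6A2 and LAMB3) the other replicates in every group, as described further on. COL4A1 (chr13:110148963-110307157) and COL4A2 (chr13:110307284-110513209) are transcribed away from each other, and the 126 bases between their start sites are given on the plus strand. The others are the 250 bases before the start site, on the strand of the gene. Capitals mark 4 motifs, each searched on both strands with overlaps allowed. Near start sites GGGCGG is known as the core that Sp1 binds and CCAAT as that of NF-Y. The other searched letters were TATAAA, bound by the basal machinery, and TGANTCA, the core of the AP-1 motif.
COL4A1 and COL4A2, chr13:110307158-110307283, plus strand: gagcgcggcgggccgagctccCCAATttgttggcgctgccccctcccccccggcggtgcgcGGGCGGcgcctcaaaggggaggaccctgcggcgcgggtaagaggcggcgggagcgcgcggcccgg
LAMA5, chr20:62367313-62367562, minus strand: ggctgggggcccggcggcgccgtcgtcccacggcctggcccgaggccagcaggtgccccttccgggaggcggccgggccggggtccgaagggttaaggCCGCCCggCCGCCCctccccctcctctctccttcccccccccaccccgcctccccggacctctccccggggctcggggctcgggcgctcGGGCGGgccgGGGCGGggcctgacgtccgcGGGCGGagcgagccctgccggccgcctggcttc
COL6A2, chr21:46097862-46098111, plus strand: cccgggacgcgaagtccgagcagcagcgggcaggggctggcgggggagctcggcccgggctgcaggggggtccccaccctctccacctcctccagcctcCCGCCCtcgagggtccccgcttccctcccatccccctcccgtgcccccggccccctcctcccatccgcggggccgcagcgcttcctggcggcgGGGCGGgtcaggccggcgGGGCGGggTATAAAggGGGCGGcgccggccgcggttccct
LAMB3, chr1:209652426-209652675, minus strand: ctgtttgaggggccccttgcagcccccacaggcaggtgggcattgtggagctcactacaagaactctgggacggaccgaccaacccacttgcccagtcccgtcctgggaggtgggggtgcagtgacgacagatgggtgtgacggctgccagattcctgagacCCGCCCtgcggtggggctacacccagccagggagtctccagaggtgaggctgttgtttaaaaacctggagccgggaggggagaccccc

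The interval between COL4A1 and COL4A2 had 80.2% G and C and held 1 GGGCGG and 1 CCAAT. The stretch of LAMA5 (82.8% G and C) held 5 GGGCGG, that of COL6A2 (79.6%) held 4 GGGCGG and 1 TATAAA, and that of LAMB3 (64.0%) held 1 GGGCGG. None of these 4 windows held TGANTCA. Over 35114 RefSeq promoters the median G and C content of 250 bases was 58.0%, and GGGCGG was present in 42.6%, CCAAT in 32.0%, TATAAA in 10.7% and TGANTCA in 6.57%. In the 126 bases nearest the start these values were 60.3%, 34.6%, 21.1%, 5.87% and 3.5%. A match is a run of letters and was not tested as a binding site.

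All levels are log2 intensities after GCRMA. The median of an array was 2.858 to 2.924, and the share of probe sets at 4 or more was 38.24% to 39.13%. The 36 genes below the filter stayed between 1.974 and 3.616 on every array. They include the interstitial chains COL1A2, COL2A1, COL5A1, COL5A2 and COL5A3, the collagen VI chain COL6A3, COL4A6, LAMA4, LAMB4, the leukocyte subunits ITGB2 and ITGB7, and ITGA8, ITGA9, ITGA10 and ITGA11. At the filter's edge, COL5A1 with a highest group mean of 3.279, COL11A1 with 3.179 and COL10A1 with 3.165 were left out. ITGB2-AS1 with 4.056, ITGB1-DT with 4.158 and ITGA2B with 4.287 were kept. The low values of a GCRMA array are drawn to a common floor, so differences that reach below about 4 are compressed. COL1A1 was measured at a mean of 7.64 over the arrays by its brightest probe set, while COL1A2, its partner in type I collagen, averaged 2.96. The other COL1A1 probe sets averaged 7.04, 6.84, 2.72 and 2.56, so they disagree on its level.

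The labelled cell type was checked with listed markers. Of 9 measured renal tubular epithelial markers 8 were tested, among them PAX8 (mean 10.41) and KRT18 (12.61), and PAX2 was below the filter. Of 11 markers of the differentiated proximal tubule only DPP4 passed, at 11.52. None of 8 endothelial, 5 leukocyte and 4 distal nephron markers passed, while 2 of 4 podocyte markers (SYNPO and PODXL) did. Of 10 fibroblast genes DCN (10.30), LUM (9.10), COL1A1 and COL3A1 passed, and PDGFRA, PDGFRB, FAP and THY1 did not.

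The first comparison asked how far the 3 replicate numbers differed within the groups. Arrays numbered 3 stood apart from those numbered 1 and 2 in the basement membrane genes, all 5 tested collagen IV chains and 4 laminin chains being lower there and LAMB3 and LAMC1 higher. A limma fit with a term for group and one for number called 33 of the 47 genes (F test, adjusted p under 0.05), against 46.7% of all genes tested. These were 14 of 20 collagen chains, 6 of 8 laminin chains, 11 of 14 integrin subunits and 2 of the 5 genes caught by their letters. Among the 33, ITGA1 and ITGB1-DT passed the level filter only through arrays numbered 3, and COL4A3 only through those numbered 1 and 2. Number 3 against number 1 was called in 32, against 44.2% of all genes (13 higher and 19 lower, against 20.5% and 23.7%). Number 3 against number 2 was called in 32 as well, against 45.8% (13 higher and 19 lower, against 21% and 24.8%). Number 2 against number 1 was called in none, against 0.0746% of all genes, and 7 of the 47 had an unadjusted limma p under 0.05, against 11.4%. The median size of the difference between numbers 3 and 1 was 0.71 on the log2 scale for the 47 genes and 0.25 for all genes.

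**Figure D1:**
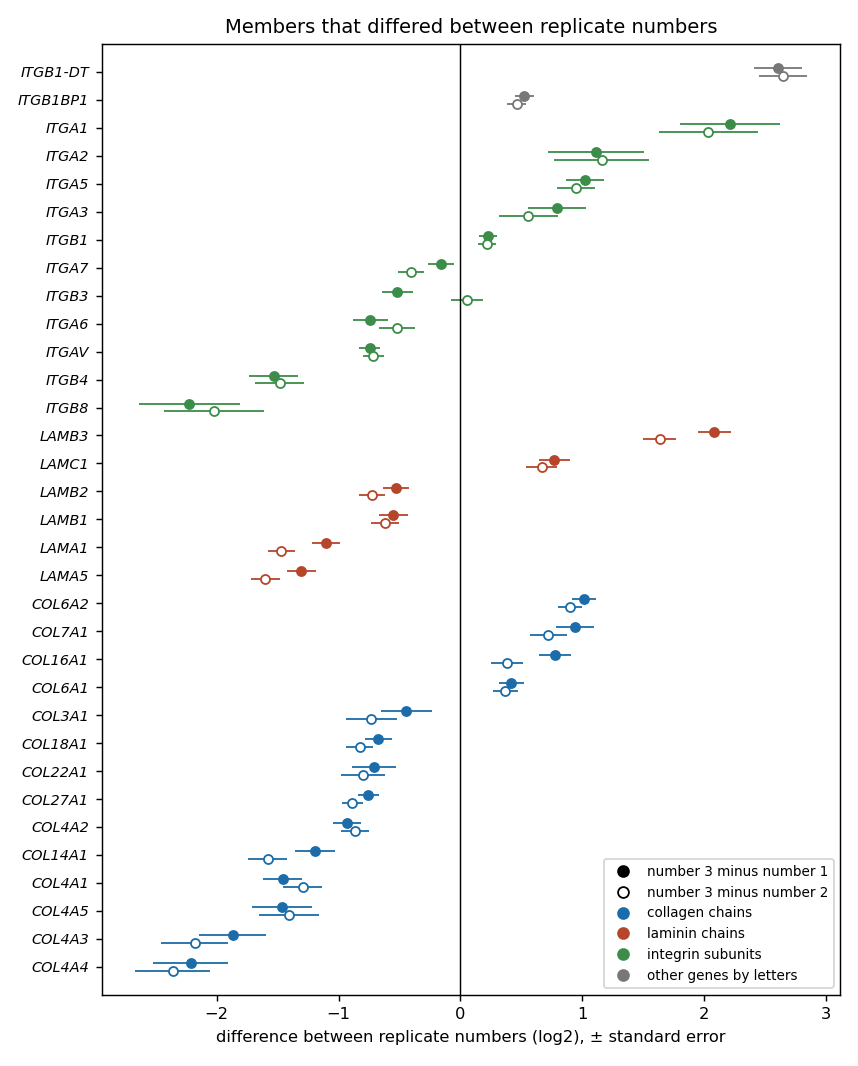
Difference between replicate numbers on the log2 scale (horizontal axis, points with standard errors) for the 33 genes called by the F test. Filled points give number 3 minus number 1, open points number 3 minus number 2, and colour gives the family. All 5 collagen IV chains lie below 0, as does COL14A1 at -1.20 and -1.58, and LAMB3, ITGA1 and ITGB1-DT lie farthest above 0 in both comparisons.

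COL4A1, the main chain of ubiquitous collagen IV, ran from 10.93 to 11.92 (median 11.65) on the 6 arrays numbered 1. On those numbered 2 it ran from 9.72 to 11.91 (median 11.77), and on those numbered 3 from 8.44 to 10.73 (median 10.35). Arrays numbered 3 were the lowest of their group in all 6 groups, although the ranges overlap because the 48 h CsA arrays were low. The difference was -1.46 ± 0.16 (SE) against number 1 (limma adjusted p = 1.3e-05) and -1.29 ± 0.16 against number 2 (adjusted p = 3.53e-05). COL4A2, the chain that joins COL4A1 in the same trimer, ran from 11.69 to 12.22 (median 12.09), from 11.24 to 12.16 (median 12.03) and from 10.85 to 11.30 (median 11.03) on numbers 1, 2 and 3. It was lower on number 3 by -0.93 ± 0.11 and -0.86 ± 0.11.

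COL4A3, COL4A4 and COL4A5 form the other collagen IV network, that of the glomerular basement membrane, mutated in Alport syndrome. COL4A4 ran from 5.80 to 7.32 (median 6.14) on number 1, from 5.55 to 6.88 (median 6.64) on number 2 and from 3.37 to 5.15 (median 3.82) on number 3. The arrays numbered 3 did not overlap the others. The differences were -2.21 ± 0.31 and -2.36 ± 0.31 for COL4A4, -1.87 ± 0.27 and -2.18 ± 0.27 for COL4A3, and -1.46 ± 0.25 and -1.40 ± 0.25 for COL4A5. On number 3 COL4A3 had a median of 2.93, near the floor, and the COL4A4 median of 3.82 was also below 4, so the differences of both are compressed.

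Among the laminins, LAMA5, the main alpha chain of mature epithelial basement membranes, ran from 9.07 to 9.26 (median 9.13) on number 1 and from 9.23 to 9.74 (median 9.45) on number 2. On number 3 it ran from 7.44 to 8.61 (median 7.79), below every other array, lower by -1.30 ± 0.12 and -1.60 ± 0.12. LAMA1, the alpha chain of embryonic epithelia, was lower by -1.10 ± 0.11 and -1.47 ± 0.11. LAMB3, a beta chain of the laminin that anchors hemidesmosomes, went the other way. It ran from 7.04 to 7.53 (median 7.18) on number 1, from 7.19 to 8.29 (median 7.49) on number 2 and from 8.89 to 9.83 (median 9.13) on number 3, above every other array. Its difference was 2.08 ± 0.14 against number 1 (limma adjusted p = 1.7e-07) and 1.64 ± 0.14 against number 2 (adjusted p = 1.26e-06). LAMC1, the gamma chain of most trimers, was higher by 0.77 ± 0.13 and 0.66 ± 0.13, and the beta chains LAMB1 (-0.55 and -0.62) and LAMB2 (-0.53 and -0.72) were lower. So within the trimer of LAMA5, LAMB1 and LAMC1 the alpha and beta chains were lower on number 3 and the gamma chain higher.

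**Figure D2:**
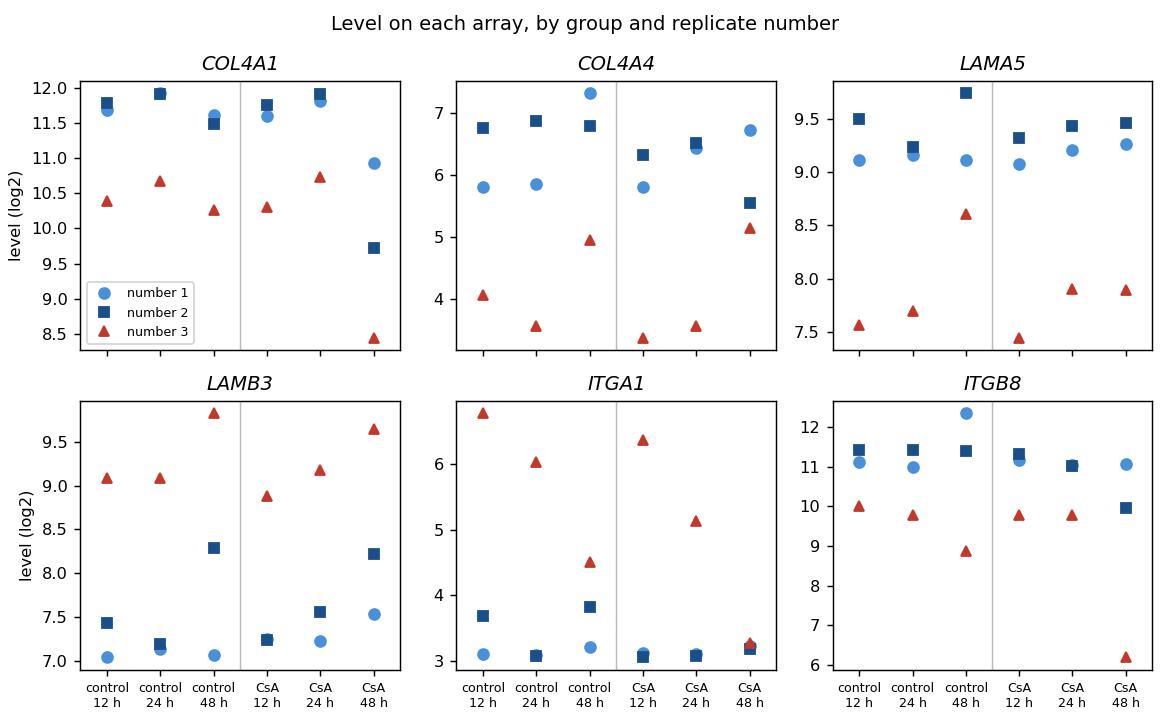
Level on the log2 scale (vertical axis) of 6 genes on each of the 18 arrays, by group (horizontal axis), with the replicate number as colour and shape. Number 3 lies below the other numbers in COL4A1, COL4A4, LAMA5 and ITGB8 and above them in LAMB3 and ITGA1 in every group. ITGA1 on number 3 fell towards the others at 48 h, to 4.51 in control and 3.27 with CsA.

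Integrin subunits differed in both directions. Of the alpha subunits, both tested collagen binders were called as higher on number 3, while of 3 tested laminin binders and of 3 tested RGD binders 1 was higher and 1 lower than on number 1. ITGA1 lay between 3.05 and 3.82 on the 12 arrays of numbers 1 and 2, at the floor of the array, and between 3.27 and 6.79 (median 5.58) on number 3, higher by 2.21 ± 0.41 and 2.03 ± 0.41. It passed the level filter only through arrays numbered 3, so its call as higher there follows in part from how it was chosen. ITGA2 was higher by 1.11 ± 0.39 and 1.16 ± 0.39 over all groups. Number 3 was the highest at 12 and 24 h but not at 48 h, where numbers 1 to 3 read 4.88, 4.28 and 4.77 in control and 4.46, 3.25 and 3.02 with CsA. The ITGA2 calls were lost without any one of the arrays of 12 or 24 h with the numbers compared, CsA array 2 of 12 h excepted (highest limma adjusted p = 0.0955 and 0.0798). ITGA5, the alpha subunit of the fibronectin receptor, was higher by 1.02 ± 0.16 and 0.95 ± 0.16, and its partner ITGB1 by 0.22 ± 0.07 and 0.22 ± 0.07, small steps whose calls were kept in 18 and 20 of 26 alternatives and lost without control array 3 of 12, 24 or 48 h. ITGAV, the partner of most other beta subunits, was lower by -0.75 ± 0.09 and -0.72 ± 0.09. ITGB8, which with ITGAV activates latent TGF-beta, ran from 11.01 to 12.36 (median 11.09), from 9.96 to 11.42 (median 11.37) and from 6.19 to 10.00 (median 9.79) on numbers 1, 2 and 3. It was lower on number 3 by -2.22 ± 0.41 and -2.02 ± 0.41. ITGA6 (-0.74 and -0.52) and ITGB4 (-1.53 and -1.48), which pair in the hemidesmosome, were lower too. ITGA3, the other laminin-binding alpha subunit of epithelium, was higher than on number 1 by 0.79 ± 0.24 (limma adjusted p = 0.0173). Against number 2 it was higher by 0.56, which was not called.

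The matrix collagens also differed in both directions. COL6A2, a chain of the microfibrils of collagen VI, ran from 6.30 to 7.36 on number 1, from 6.79 to 7.33 on number 2 and from 7.58 to 8.31 on number 3, higher by 1.02 ± 0.10 and 0.90 ± 0.10. COL6A1 was higher by 0.42 and 0.37, and COL7A1, the collagen of anchoring fibrils, by 0.94 and 0.72. A second probe set of COL6A2 gave a smaller difference, 0.33 against number 1, which was not called (adjusted p = 0.0824). COL16A1, a fibril-associated chain, was higher by 0.77 and 0.38, the latter call being lost without array 2 of either 24 h group, control array 2 of 48 h or array 3 of either 48 h group. COL14A1 and COL22A1, fibril-associated too, were lower, by -1.20 and -1.58 and by -0.71 and -0.80, as was COL27A1, a fibrillar chain first described in cartilage (-0.75 ± 0.09 and -0.89 ± 0.09). For COL22A1 a second probe set gave -0.06 against number 1 and was not called. COL18A1, the basement membrane collagen that releases endostatin, was lower by -0.67 and -0.83. Of the 5 genes caught by letters, ITGB1-DT, a transcript that starts beside ITGB1 and runs away from it, was higher by 2.60 ± 0.20 and 2.65 ± 0.20. It was near the floor on numbers 1 and 2, at most 3.55, and passed the level filter only through number 3. Its call as higher there also follows in part from that choice. ITGB1BP1, a cytoplasmic partner of the ITGB1 tail, was higher by 0.52 and 0.46.

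Number 3 lay below numbers 1 and 2 in all 6 groups for 16 of the 47 genes (against 14.8% of all genes) and above them in all 6 for 10 (against 11.7%). The replicate number held 90.7% of the sum of squares within groups for the laminin chains, 79.3% for the collagen chains and 69.8% for the integrin subunits, against 71.5% for all genes. Gene by gene it was 95.8% for LAMB3, 94.8% for LAMA5 and 92.8% for COL6A2, but 5.5% for ITGB5 and 6.1% for ITGA4. These shares are those of the brightest probe set of each gene. ITGB5 and ITGA4 have 4 probe sets each, so their low shares do not show that the other probe sets were alike between numbers. Listed renal tubular markers differed between numbers in both directions. Of the 8 tested renal tubular markers 6 were called by the same F test, against 46.7% of all genes. Against number 1, 2 were called as higher and 3 as lower. CDH1, the epithelial cadherin, averaged 8.08, 8.30 and 3.80 on numbers 1, 2 and 3, while PAX8 averaged 10.23, 10.06 and 10.93 and VIM 13.77, 13.72 and 14.12. Their part in the result was not tested. The labels call the numbers biological replicates and do not say whether the arrays of one number came from the same culture, so these p-values measure the spread between arrays within a number.

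The second comparison followed control cells from 12 to 48 h. The collagens COL6A1 and COL12A1 and the integrin subunits ITGB5 and ITGA4 fell, and they were the 4 of the 47 genes called over time (limma F test), against 14.2% of all genes. The median difference between 48 and 12 h was 0.45 for the laminin chains, 0.04 for the collagen chains, -0.29 for the integrin subunits and -0.01 for all genes. With the replicate number as a block the F test called 11, against 33.5% of all genes. The added genes were COL14A1, COL16A1, COL6A2, ITGA5, LAMA1, LAMB1 and LAMB3. Without control array 2 or 3 of 48 h the unblocked test called 2, without all arrays of number 1 or of number 2 it called none, and without number 3 it called 5. The share of all genes called in these refits is not given, so a shift particular to these genes cannot be read from them.

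COL6A1 stood at 9.57, 9.67 and 10.02 on the control arrays numbered 1 to 3 at 12 h, at 9.51, 9.36 and 9.68 at 24 h and at 8.17, 8.31 and 9.21 at 48 h. Every 48 h array lay below the 6 earlier ones, and the fall from 12 h was -1.19 ± 0.22 (limma adjusted p = 0.0036). ITGB5, a beta subunit of the vitronectin receptors, went from 10.27, 10.34 and 10.15 at 12 h to 9.43, 9.03 and 9.72 at 48 h, a fall of -0.86 ± 0.16 (adjusted p = 0.00336). Its second probe set gave -0.37 and was not called. ITGA4, an alpha subunit that binds VCAM1 and fibronectin, went from 5.53, 6.02 and 6.33 to 5.42, 4.54 and 4.95, by -0.99 ± 0.27 (adjusted p = 0.0214). The array numbered 1 changed little, by -0.11, and the call was lost without control array 2 or 3 of either 12 or 48 h (adjusted p between 0.0505 and 0.0985). COL12A1, a fibril-associated chain near the floor, fell by -0.85 ± 0.20 (adjusted p = 0.0112, and 0.0535 without control array 2 of 48 h).

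With the number as a block 4 of the 8 laminin chains were called as higher at 48 h than at 12 h, and none as lower. Of all 10717 genes 1931 were called as higher and 2007 as lower in that fit. LAMA2 (0.19), LAMA5 (0.43), LAMC1 (-0.07) and LAMC3 (-0.19) did not pass the test. LAMB1, the beta chain of the common laminins, stood at 11.57, 11.90 and 11.37 at 12 h and at 12.66, 12.36 and 12.29 at 48 h, each 48 h array above all earlier ones. The rise of 0.82 had a limma adjusted p of 0.0736 without the block and 0.0022 with it, and without all arrays of number 1 the latter was 0.0513. LAMA1 went from 8.21, 8.55 and 7.14 to 8.95, 9.66 and 8.40, by 1.04 (adjusted p = 0.247, and 0.000407 with the block). It rose within each number, by 0.75, 1.11 and 1.26. LAMB2 (0.48, blocked adjusted p = 0.0257) and LAMB3 (0.55, blocked adjusted p = 0.0396) were the other two called with the block. Both of these calls were lost without any control array of 12 h or without control array 2 or 3 of 48 h, and for LAMB3 number 1 differed by 0.03.

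COL14A1 went from 9.50, 10.00 and 7.90 to 10.71, 11.01 and 10.13, by 1.49 (adjusted p = 0.134 in limma, 0.000418 with the block), and its other 3 probe sets differed by 1.06 to 1.67. COL16A1 (0.61), COL22A1 (0.79) and COL4A3 (1.08) were called as rises with the block only (COL4A3 in 13 of 28 alternatives with the block, and not without most single 12 or 48 h control arrays), and COL6A2 (-0.59) and ITGA5 (-0.69) as falls with the block only. The rises of COL16A1 and COL22A1 and the fall of ITGA5 were lost without control array 3 of 12 h or of 48 h, those of COL16A1 and ITGA5 also without array 1 of 12 h, and those of COL22A1 and ITGA5 without array 1 of 48 h. In all 14 of the 47 genes were called between 12 and 48 h with the block, against 36.7% of all genes (8 higher and 6 lower, against 18% and 18.7%). Without it 4 were called, against 17.9%, all lower, against 9.37%. Control arrays of 48 h lay above all earlier control arrays for 1 gene (LAMB1, against 12.1% of all genes) and below them for 5 (against 13.3%): COL6A1, COL8A1, ITGA4, ITGB5 and LAMC3.

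**Figure D3:**
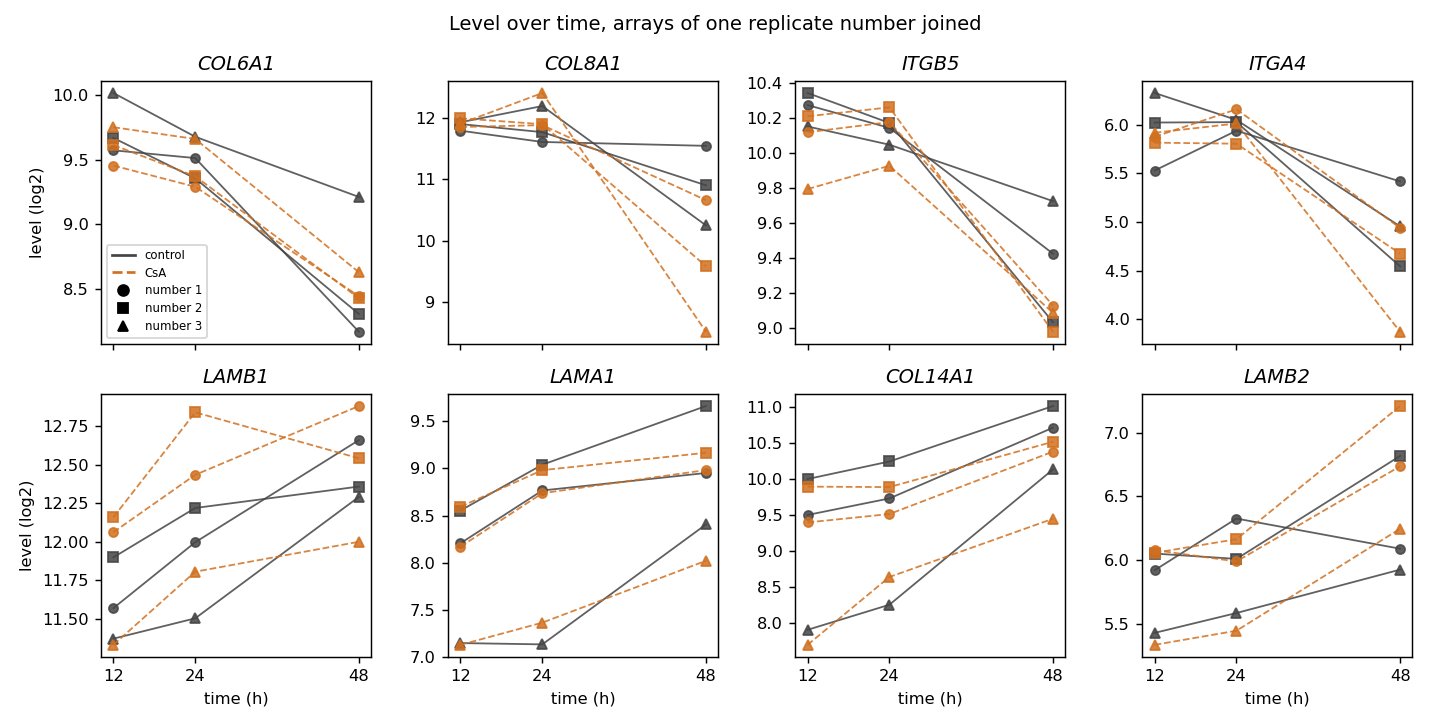
Level on the log2 scale (vertical axis) of 8 genes at 12, 24 and 48 h (horizontal axis). Lines join the arrays of one replicate number, solid for control and dashed for CsA. COL6A1 and ITGB5 end lower on every line. COL14A1 and LAMA1 end higher on every line, while COL8A1 ends lowest in the CsA array numbered 3, at 8.52.

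In the CsA arrays 9 of the 47 genes were called between 12 and 48 h, against 32.5% of all genes, 1 of them higher (16.3% of all genes) and 8 lower (16.2%). With the block 19 were called, against 48.7%, 7 of them higher and 12 lower, against 24.4% in each direction. The falls of COL6A1 (-1.11 ± 0.22), ITGB5 (-0.97 ± 0.16), ITGA4 (-1.38 ± 0.27) and COL12A1 (-0.55 ± 0.20) were called here as in the control arrays, that of COL12A1 in only 6 of 26 alternatives. COL8A1, a network-forming short-chain collagen, stood at 11.86, 12.00 and 11.91 at 12 h, at 11.88, 11.90 and 12.41 at 24 h and at 10.66, 9.59 and 8.52 at 48 h. The fall was -2.33 ± 0.41 (limma adjusted p = 0.000833), and 0.0616 without number 2. In control the same gene went from 11.79, 11.90 and 11.93 to 11.55, 10.90 and 10.25, by -0.98. This passed the limma test neither without the block (adjusted p = 0.118) nor with it (0.0772). A second, dimmer probe set of COL8A1 fell further in control, by -1.58. ITGA2 fell from 4.77, 5.46 and 6.95 to 4.46, 3.25 and 3.02, by -2.15 ± 0.73 (adjusted p = 0.0348). The low end of that range is at the floor. With values below 4 raised to 4, or without CsA array 2 or 3 of 12 or 48 h, the ITGA2 call was lost. COL1A1 (-0.86), a call lost without CsA array 1 or 2 of 12 h or array 3 of 48 h, and ITGB3BP (-0.77) fell. LAMB2 rose by 0.91 ± 0.32 (adjusted p = 0.0412), a call lost without CsA array 2 or 3 of 12 h, 1 of 24 h, or 1 or 2 of 48 h, and without control array 1 of 12 h or 2 of 24 h. With the block only, LAMA1 (0.76), LAMB1 (0.62) and LAMB3 (0.68) rose, and COL4A1 (-1.53) and ITGB8 (-1.69) fell. The ITGB8 call was lost without CsA array 2 or 3 of 12 h or array 3 of 48 h, and that of LAMB3 without CsA array 2 of 12 h. Without CsA array 2 of 12 h the unblocked count of 9 was 5, and without all arrays of number 2 it was 2. The share of all genes called in those refits is not given.

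The third comparison asked what CsA changed against control at each time. At 12 h limma called none of the 47 genes without or with the block, against 0% of all genes, and none had an unadjusted p under 0.05, against 0.914% and 2.42%. At 24 h it called none without the block, against 0%, and none with it, against 0.00933%, while none and 2 had an unadjusted p under 0.05, against 3.79% and 9.41%. At 48 h limma called none without the block, against 0.439% of all genes, and 4 had an unadjusted p under 0.05, against 16%. With the block it called COL4A1, COL27A1 and ITGB3BP, against 10.8% of all genes, all lower with CsA, against 5.96%, and 12 had an unadjusted p under 0.05, against 28.1%. At 48 h 28 of the 47 differences were negative, with a median of -0.08, while all genes had a median of 0.00.

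COL4A1 read 11.61, 11.48 and 10.27 on the control arrays numbered 1 to 3 at 48 h and 10.93, 9.72 and 8.44 on the CsA arrays. Each CsA array was below the control array of its number, by -0.68, -1.76 and -1.82, and the groups overlapped because the numbers differ. The difference of -1.42 had a standard error of 0.64 without the block (limma adjusted p = 0.293) and of 0.23 with it (adjusted p = 0.00691). At 12 and 24 h the pairs lay between -0.11 and 0.05. A second probe set gave -1.36 (0.371, and 0.00615 with the block). Without all arrays of number 2 the blocked adjusted p was 0.0997, without number 3 it was 0.0831, and no single array left out ended the blocked call.

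COL4A2, transcribed from the other side of the interval shown above, read 11.75, 12.03 and 11.28 in control and 11.69, 11.24 and 10.96 with CsA at 48 h. The pairs differed by -0.06, -0.79 and -0.32, and the mean of -0.39 was not called (adjusted p = 0.128 with the block). All 5 collagen IV chains had a negative difference at 48 h, with a median of -0.55, and COL4A1 was the only one called. COL4A3, COL4A4 and COL4A5 differed by -0.64, -0.55 and -0.54 there, none past the test, and in the pair numbered 3 COL4A3 and COL4A4 were higher with CsA, by 0.25 and 0.20.

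COL27A1 read 7.93, 8.18 and 7.02 in control and 7.51, 7.59 and 6.52 with CsA at 48 h. CsA was below control in 9 of 9 same-numbered pairs over the 3 times, which held for 1 of the 47 genes and for 4.42% of all genes, and above control in 9 of 9 for none, against 3.47%. The 48 h difference was -0.50 ± 0.38 (adjusted p = 0.594 in limma, 0.0248 with the block), and the average over the times was called with the block too (adjusted p = 0.0321). At 48 h the blocked call was lost without CsA array 2 or 3 or control array 1 or 2 of that time. A second probe set of COL27A1 gave -0.44 at 48 h and was not called. At 12 and 24 h that probe set differed by 0.21 and 0.01, and its average over the times was -0.07. The shared sign over the times is therefore that of the brightest probe set. ITGB3BP, also known as a centromere protein, read 10.29, 10.15 and 9.96 in control and 9.95, 9.49 and 9.36 with CsA at 48 h. Its groups did not overlap at 24 h or at 48 h, and the difference at 48 h was -0.53 ± 0.16 (adjusted p = 0.124 in limma, 0.0373 with the block). That call too was lost without CsA array 2 or 3 or control array 1 or 3 of 48 h, CsA array 3 of 12 h or CsA array 1 of 24 h. The CsA arrays lay below all control arrays of 48 h for 3 of the 47 genes (ITGB3BP, LAMC1 and ITGB2-AS1), against 6.77% of all genes, and above them for none, against 8.25%. At 12 h they lay above for COL11A2 (3.26% of all genes) and below for COL12A1 (3.1%), and at 24 h above for ITGA2B (4.57%) and below for ITGB3BP (5.12%).

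The count of 3 at 48 h with the block depended on single arrays of that time. It was 7 without CsA array 1 and 5 without control array 3, and it was 1 without CsA array 2, CsA array 3 or control array 1. Without CsA array 1 the count without the block was 2. Averaged over the 3 times, limma called none without the block, against 0.084% of all genes, and 2 had an unadjusted p under 0.05 (ITGB3BP and ITGB2-AS1), against 12.2%. With the block it called COL4A1 (adjusted p = 0.0481) and COL27A1, against 4.61% of all genes, and 8 had an unadjusted p under 0.05, against 22.6%. These were kept in 10 of 29 alternatives for COL4A1 and 13 of 29 for COL27A1. The blocked count for the average ranged from 0 to 3 when any single array was left out, and it was 0 without any one of the 6 arrays of 12 h, CsA array 1 or 2 or control array 2 or 3 of 24 h, or CsA array 2 or control array 1 of 48 h.

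**Figure D4:**
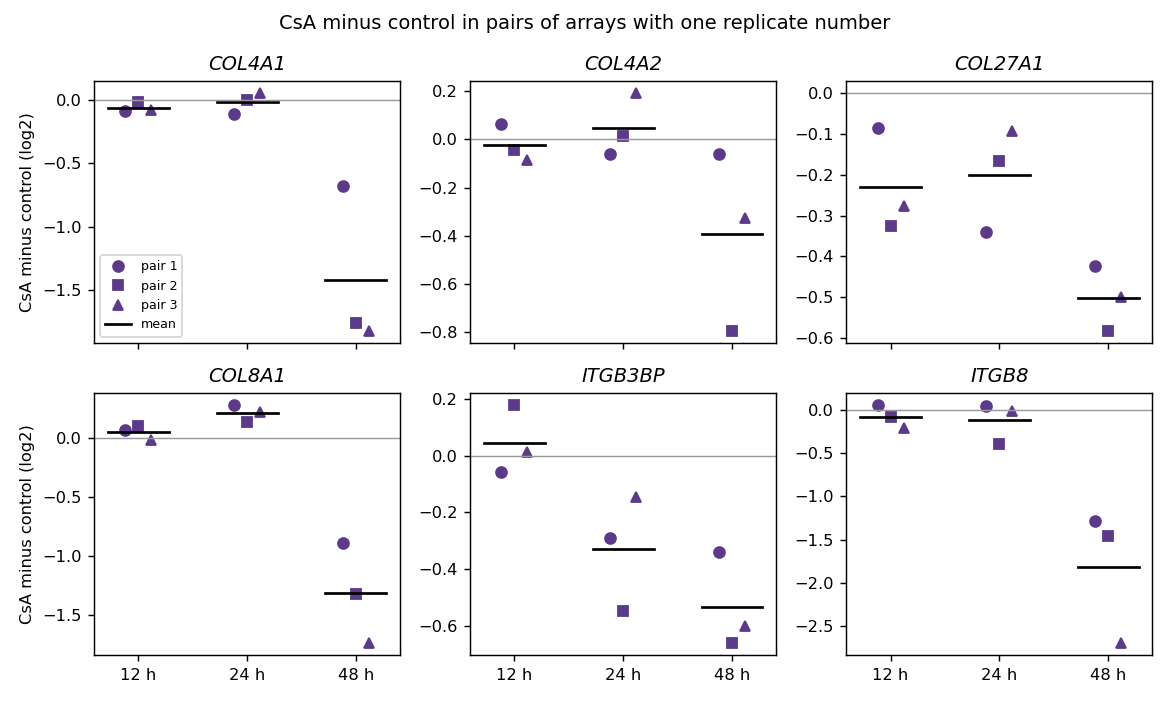
CsA minus control on the log2 scale (vertical axis) in each pair of arrays with one replicate number at 12, 24 and 48 h (horizontal axis), with the mean as a bar. COL4A1, COL8A1 and ITGB8 lie near 0 at 12 and 24 h and below -0.5 in every pair at 48 h, and COL27A1 lies below 0 in all 9 pairs. Of the 6 genes only COL4A1, COL27A1 and ITGB3BP were called at 48 h, and only with the block.

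Some genes had 48 h differences that were large but not called. COL8A1 read 11.55, 10.90 and 10.25 in control and 10.66, 9.59 and 8.52 with CsA, lower in each pair (-0.89, -1.32 and -1.73). Its mean difference of -1.31 ± 0.41 had a limma adjusted p of 0.137, and 0.0563 with the block. A second probe set of COL8A1 gave -0.88. ITGB8 read 12.36, 11.41 and 8.88 in control and 11.08, 9.96 and 6.19 with CsA. The mean difference of -1.81 ± 1.08 had an adjusted p of 0.461, and 0.0631 with the block. LAMC1 read 10.82, 10.91 and 11.25 against 10.39, 10.40 and 10.46 with CsA (-0.58, blocked adjusted p = 0.0599). ITGA3 read 8.03, 8.94 and 10.30 in control and 9.10, 9.80 and 10.64 with CsA at 48 h. Averaged over the times CsA was above control by 0.42 for ITGA3 and by 0.25 for ITGB3, and neither was called.

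By family, the median difference at 48 h was -0.13 for the collagen chains (13 of 20 negative), 0.01 for the laminin chains and -0.01 for the integrin subunits. The collagen median was negative in each of the 3 pairs, at -0.15, -0.17 and -0.14. The laminin median was 0.19, -0.14 and -0.24 and the integrin median 0.09, -0.03 and -0.31. At 12 and 24 h the medians of these 3 families lay between -0.02 and 0.09. The comparison of CsA with control and that of control over time share the control arrays of 12 and 48 h. For COL6A1 the values were -0.06 for CsA against control at 48 h and -1.19 for control over time, for LAMB1 0.04 and 0.82, and for COL4A1 -1.42 and -0.17. Other COL6A1 probe sets past the level filter gave 0.43, 0.35, 0.41 and -0.07 for CsA against control at 48 h. For control over time the same probe sets gave -0.91, -0.94, -0.92 and -0.77.

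**Figure D5:**
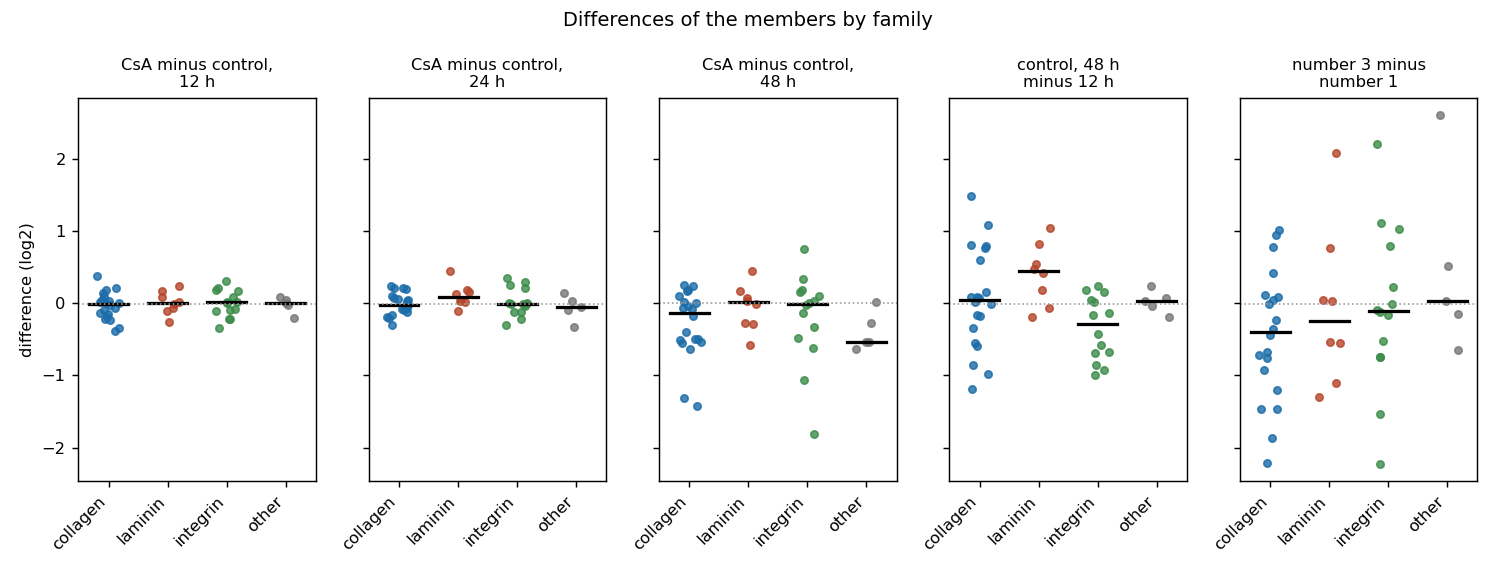
Difference on the log2 scale (vertical axis) of each of the 47 genes, by family (horizontal axis), in 5 comparisons. Black bars are family medians and the dotted line is the median of all genes. The spread is narrow for CsA at 12 and 24 h and widest between numbers 3 and 1, and the laminin median over time in control is 0.45.

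The difference of the CsA effect between times was called by limma in none of the 47 genes without the block, against 0.0373% of all genes, and in none with it, against 0.028%. At an unadjusted p under 0.05 there were 1 and 3, against 3.47% and 10.5%. The 48 h values of COL4A1, COL8A1 and ITGB8 were therefore not shown to differ from those at 12 and 24 h (adjusted p of the blocked F test 0.278, 0.453 and 0.539). For 6 of the 47 genes (COL6A2, COL8A1, ITGA2, ITGA6, LAMA5 and LAMC1) the 3 pairs had one sign at one time and the opposite sign at another, against 13.4% of all genes. These signs are those of the brightest probe set. The means of the second probe sets repeated them for COL8A1 but not for COL6A2, ITGA6, LAMC1 or ITGA2, the last near the floor. Between replicate numbers the CsA effect differed in none, against 0%, and none had an unadjusted p under 0.05, against 0.905%.

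Listed genes that act with these families were set beside them. Of 17 tested focal adhesion genes, the cytoplasmic side of integrin contacts, 3 fell in control between 12 and 48 h, and 7 with the block. All were lower, and of all genes 17.9% were called (9.37% lower) and with the block 36.7% (18.7% lower). VCL, vinculin, fell by -1.25 ± 0.16 (limma adjusted p = 0.000431), ACTN4, an alpha-actinin, by -0.82 ± 0.11 and PARVA by -0.45 ± 0.10. With CsA at 48 h none was called without the block. With it 3 were, against 10.8% of all genes, all lower (5.96% of all genes): VCL (-0.62), TNS3, a tensin (-0.90), and FERMT1, a kindlin (-0.64). Between replicate numbers 9 of the 17 were called, against 46.7% of all genes. KANK2, an adapter at adhesions, averaged 9.77, 9.67 and 7.40 on numbers 1, 2 and 3, and ACTN1 11.35, 11.34 and 12.20.

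Of 17 tested enzymes and chaperones that modify collagen, 2 fell in control between 12 and 48 h, against 17.9% of all genes called and 9.37% called lower: COLGALT1, a collagen galactosyltransferase (-0.83 ± 0.24), and LOXL2, a lysyl oxidase (-0.69 ± 0.16). With the block 4 were called, against 36.7% of all genes, LOX being higher by 1.76. With CsA at 48 h none was called without the block and 4 with it, against 0.439% and 10.8% of all genes: P4HA2 (0.85) and P4HB (0.57), subunits of prolyl hydroxylase, were higher, and COLGALT1 (-0.76) and LOXL1 (-0.84) lower. Between replicate numbers 11 of the 17 were called, against 46.7% of all genes, with LOX at 7.84, 8.02 and 9.96 and P4HA2 at 9.75, 10.15 and 11.81.

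Of 12 other tested matrix genes, THBS1, thrombospondin (-2.32 ± 0.72), and TGFBI (-1.29 ± 0.40) fell in control between 12 and 48 h, against 9.37% of all genes called lower, and none was called with CsA at 48 h with or without the block (10.8% and 0.439% of all genes). Between numbers 5 of the 12 were called, against 46.7% of all genes, with SPARC, a matrix glycoprotein that binds collagen, at 12.49, 12.58 and 11.14, HSPG2, perlecan, at 7.57, 7.58 and 6.35, and FN1, fibronectin, at 14.69, 14.67 and 15.12. Of 3 tested hemidesmosome partners 1 fell in control, against the same 9.37%, CD151, a tetraspanin bound to laminin-binding integrins (-0.65 ± 0.13). Between numbers 1 was called, against 46.7%, DST, which anchors keratin there (9.86, 9.94 and 9.34). Of the 4 tested fibroblast genes LUM, lumican, fell between 12 and 48 h in control (-1.31 ± 0.40), against the same 9.37%. In the CsA arrays LUM (-2.58 ± 0.40) and COL1A1 fell, against 1741 of all 10717 genes called lower. DCN, decorin, did not pass the test in either. All 4 fibroblast genes were lower with CsA than in control at 48 h, by a median of -0.50, and none was called with or without the block. Their part in the collagen values was not tested.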

How the data were processed

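Total RNA of HK-2 cells from 18 samples had been hybridised to Affymetrix arrays. The values are log2 intensities that the authors made with GCRMA, per the submitters' processing notes (version not given in the sources used here), for 54675 probe sets. No label names the base of the logarithm, and log2 was taken from the range of the values. No further normalization was applied. Gene symbols came from GEO's platform annotation: 41091 probe sets had 1 symbol, 1801 several and 11721 none, besides 62 controls. Several genes with listed symbols were not analysed here. All columns of values were mapped to samples, and the number of arrays limits the precision.

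Probe sets with a highest group mean of at least 4 were taken, and of these the brightest of each gene was kept. Picking the brightest before the filter would have left 10713 genes. One limma model (limma 3.58.1 in R 4.3.3) over all 18 arrays and 10717 genes had a term for each of the 6 groups, and Benjamini-Hochberg adjusted p-values under 0.05 over all genes were called. Replicate numbers were compared in a model with group and number as terms, and an alternative model added the number as a block. Arrays of one number deviated together from their group means (correlation between groups at least 0.277, and 18 of 18 arrays were closest to their own number), so the numbers were taken to pair the arrays. This comes from the data, not from a label. The p-values measure the spread between these arrays. Tables and plots were made in Python 3.11.15 with pandas 2.3.3 and matplotlib 3.10.9, and the fits were tested on simulated data. Alternatives were a change of level filter, array scaling, quantile normalization, a floor at 4, trend and robust variance, other probe sets, subsets of arrays and each array or number left out. The named genes are those of the 3 families, with full array values for up to 8 called genes per comparison and the 3 of each family with the greatest difference. The genes and lists were chosen with earlier results of these data known.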

Additional observations from a re-analysis of the deposited data

Results flagged for a closer look

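For 6 genes the 3 same-numbered pairs all differed one way between CsA and control at one time and the opposite way at another. This held for 13.4% of all genes, and limma called none of these differences between times (adjusted p of the F test 1 for each, and between 0.453 and 0.783 with the block). COL8A1 went from a mean of 0.21 at 24 h to -1.31 at 48 h, a change of -1.517. Its second probe set went the same way, from 0.09 to -0.88. ITGA2 went from 0.17 at 12 h to -0.22 at 24 h and -1.07 at 48 h, changes of -0.381 and -1.233. Its second probe set, near the floor, gave -0.003, -0.19 and -0.12. LAMC1 went from -0.26 at 12 h to 0.13 at 24 h (a change of 0.387) and to -0.58 at 48 h (a change of -0.706). Its second probe set was negative at each time, at -0.23, -0.09 and -0.36. COL6A2 went from -0.10 at 24 h to 0.25 at 48 h, a change of 0.349. Its second probe set went the other way, from 0.17 to -0.02. ITGA6 went from -0.22 at 12 h to 0.18 at 48 h, a change of 0.406, and from 24 to 48 h by 0.188. Its second probe set, nearly as bright, gave -0.12, 0.17 and -0.23 at 12, 24 and 48 h and did not repeat this. LAMA5 went from -0.11 at 12 h to 0.15 at 24 h, a change of 0.268.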

How the results depend on the processing

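Counts of the 47 genes called moved with the replicate block, with single arrays left out and with the arrays entered. Except for the main and blocked fits, shares of all genes called are not given. The other counts therefore do not show changes particular to the 47 genes. At 48 h CsA against control gave 0 genes without the block and 3 with it, and likewise 3 when only the 48 h samples (6 arrays) entered the blocked fit. With the block it gave 5 after quantile normalization and 5 with trend and robust variance. The average over times gave 2 with the block and 1 when the level filter was dropped as well. Control over time gave 4, and 11 with the block. CsA at 48 h against 12 h gave 9, 19 with the block and 5 without the level filter. Replicate numbers gave 33, and 19 from the 9 control arrays alone. The block ended none of the calls made without it that the text names.

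With arrays or numbers left out, counts ran from 0 to 2 for CsA at 48 h (0 to 7 with the block), 0 to 3 for the blocked average and 0 to 1 for the blocked effect by time. They ran from 0 to 5 for control over time (7 to 12 with the block), 2 to 13 for CsA at 48 h against 12 h (15 to 21 with the block) and 29 to 33 for replicate numbers. The 12 h, 24 h and unblocked average comparisons stayed at 0. Of 3764 alternatives for 102 named values 3024 stayed on the same side of the threshold, 580 passed it newly, 155 no longer passed it and 5 turned the sign. LAMB3 in control between 12 and 48 h ran from -0.1729 (without control array 3 of 48 h) to 1.211, and COL6A2 in CsA arrays from -0.6605 to 0.05403 (without CsA array 3 of 12 h). The second probe set gave -0.02474 for ITGA7 in CsA arrays over time, in both fits, and -0.0009851 for COL8A2 between numbers 3 and 2. The causes were not tested. Values near the floor limit ITGA1, ITGA2, COL4A3, COL4A4, COL12A1 and ITGB1-DT.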
